A study of Homo sapiens with 18 samples.

Results

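The 78 genes described here encode the proteins named MRPL or MRPS, the nuclear-encoded proteins of the mitochondrial ribosome, and were measured in 3 human non-small cell lung cancer lines. They were taken by symbol (MRPL or MRPS, a number and at most a letter A, B or C, which leaves out pseudogene symbols) and are 78 of the 57500 genes in the table. Poly-A RNA came from cells exposed for 3 h to 3 µM TRI-611, which the series title describes as a molecular glue degrader of the receptor kinase ALK, or to DMSO, the solvent. The lines are SNU2535, NCI-H3122 and NCI-H2228, and each was given TRI-611 or DMSO, which makes 6 groups of 3 libraries. Every line carries the genotype label WT and was grown in RPMI medium with serum, and the labels do not state whether replicate libraries stand for separate cultures. The p-values therefore measure the spread between these libraries, which may be technical.

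The mitochondrial ribosome translates the few messenger RNAs that are transcribed from mitochondrial DNA, all of which encode subunits of the respiratory chain and of ATP synthase. Its ribosomal RNAs are made inside the organelle, while every one of its proteins is encoded in the nucleus, translated in the cytosol and imported. Proteins of the large subunit carry MRPL names and surround the peptidyl transferase centre and the exit tunnel, and those of the small subunit carry MRPS names and hold the messenger RNA and the decoding centre. Many of these proteins descend from bacterial ribosomal proteins, and the others were added later and have no bacterial counterpart. A few names mislead: MRPS18A and MRPS30 sit in the large subunit, and MRPS36 is now regarded as a subunit of the 2-oxoglutarate dehydrogenase complex.

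All 78 genes passed the low-value filter in every comparison, so none is missing from the counts. TPM, the deposited unit, gives each gene as a length-scaled share of its library, so values compare genes as well as samples, but read depth is unknown and a change in total RNA cannot be seen. In bulk RNA, less transcript per cell cannot be told apart from fewer cells that hold it. All 8 epithelial markers examined reached 1 TPM in some library, with a summed level of 3289 to 10060 TPM. Of 3 leukocyte markers 1 did (sum 0.734 to 4.60 TPM), while PTPRC and CD3E stayed below 1 TPM in all 18 libraries. Of 3 fibroblast markers, 1 did (sum 11.2 to 393 TPM), with PDGFRB and COL1A2 below 1 TPM throughout, as did 3 of 3 endothelial markers (sum 1.99 to 12.1 TPM). No marker was at 0 in all libraries, and their part in the results was not tested. The ALK messenger itself was not called in any line: TRI-611 libraries averaged 21.3 ± 0.754 TPM in SNU2535 against 24.8 ± 2.11 TPM with DMSO (SD, n = 3 each), with smaller differences in the other lines. Transcripts of mitochondrial DNA took 7.59% to 15.0% of a library, the largest share being in replicate 3 of NCI-H3122 with TRI-611.

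After 3 h of TRI-611 the mitochondrial ribosomal protein genes as a group stood slightly lower in all 3 lines, by a median of 0.07 to 0.11 on the log2 scale, and the genes that passed the test were mostly lower. The summed TPM of the 78 genes was 5587, 5621 and 5500 in the TRI-611 libraries of SNU2535, against 5903, 6085 and 6048 in its DMSO libraries. In NCI-H3122 the sum was 6860.0, 7008 and 6697 with TRI-611, against 7437, 7165 and 7324 with DMSO. NCI-H2228 gave 6585, 6567 and 6518 with TRI-611, against 7142, 6977 and 6986 with DMSO. In each line every TRI-611 library lay below every DMSO library, and the means differed by -7.36%, -6.21% and -6.80%. An exact two-sided permutation test over the libraries gave p = 0.1 in each line, the smallest value that 3 against 3 allows (0.15 after adjustment over the sums and comparisons computed), so this design cannot reach 0.05 for a single sum. Mitochondrially encoded transcripts averaged 9.13%, 12.5% and 10.8% of the TRI-611 libraries of SNU2535, NCI-H3122 and NCI-H2228, against 8.70%, 11.2% and 9.07% of the DMSO libraries. Computed without those transcripts, the differences in the sum were -6.92%, -4.70% and -4.94%.

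**Figure D1:**
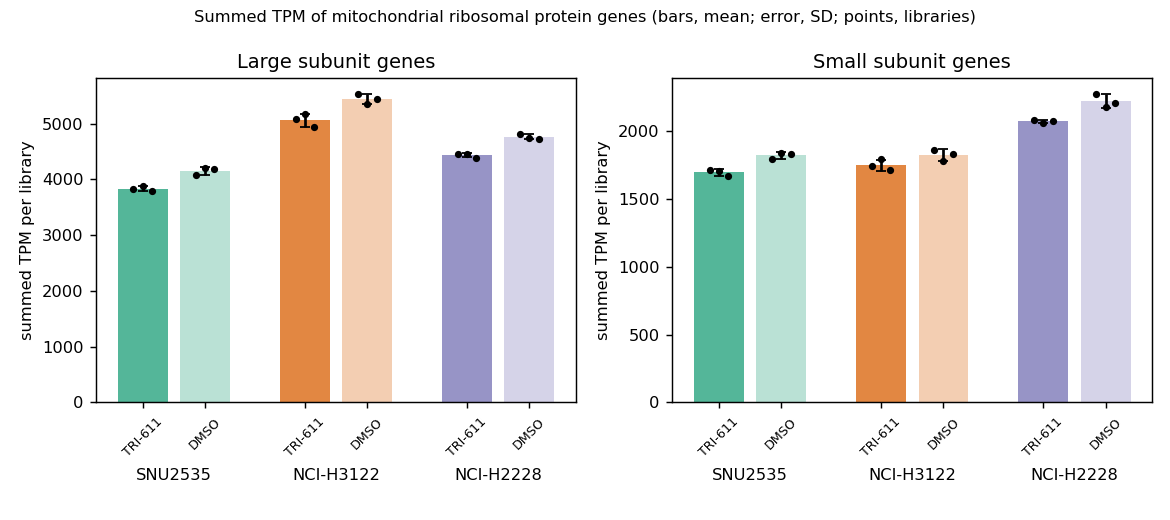
Summed TPM (y axis) of the 51 large subunit genes (left) and 26 small subunit genes (right) in each line with TRI-611 and with DMSO; bars are means, error bars SD and points the 3 libraries. In every line the TRI-611 bar is the lower of the pair; in NCI-H3122 the small subunit points of the 2 treatments overlap.

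In SNU2535, 20 of the 78 genes fell and 3 rose (limma on log2(TPM + 1), adjusted p under 0.05 over all genes tested). Over all 16252 genes tested there, 18.1% were called lower and 10.7% higher. Of the members, 29 had every TRI-611 library below every DMSO library and 6 the reverse, where 25.8% and 18.1% of all genes did. The members' median difference was -0.07, against -0.02 for all genes, and 61 of 78 members were below 0. Under quantile normalization 11 members were called lower and 7 higher, with a median of -0.0013, and under median-ratio scaling 16 lower and 5 higher. Of all genes, 14.9% were lower and 15.4% higher under the first, and 16.7% and 12.7% under the second, so the balance of calls and the size of the shift in this line depend on the scaling. Without TRI-611 replicate 3 the count of lower calls was 13, and leaving out any library left 0 or 1 of the 3 higher calls, as the replicate block left 1.

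In NCI-H3122, 23 members fell and 4 rose. The share of all 15311 genes tested was 13.4% lower and 20.6% higher, the opposite balance to that of the members with TPM as deposited, and the medians were -0.08 for the members and 0.05 for all genes. Members below 0 numbered 54, and 32 had every TRI-611 library below every DMSO library, against 18.6% of all genes, while 8 had the reverse, against 29.5%. Median-ratio scaling gave 41 lower and 2 higher, where 20.7% of all genes were lower and 16.4% higher, so the balance over all genes turned with this scaling. Quantile normalization gave 26 lower and 5 higher, against 16.7% and 18.9% of all genes. TPM recomputed without mitochondrially encoded genes gave 22 lower and 9 higher, against 13.2% and 24.4% of all genes. Only 2 higher calls were made with the replicate block, and likewise when DMSO replicate 2, DMSO replicate 3 or TRI-611 replicate 2 was left out, against 7 without TRI-611 replicate 3.

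In NCI-H2228, 15 members fell and 1 rose. Here 6.4% of the 16806 genes tested were called lower and 4.8% higher. Members below 0 numbered 67, the most of the 3 lines, with a median of -0.11 against 0.01 for all genes. All TRI-611 libraries lay below all DMSO libraries for 39 members, against 16.2% of all genes, and above them for 1, against 15.2%. The count of lower calls was 5 without TRI-611 replicate 1, 6 without DMSO replicate 1, 7 without TRI-611 replicate 3 and 8 without either DMSO replicate 2 or TRI-611 replicate 2. Plain empirical Bayes left 3 such calls, the table without a filter 7 and quantile normalization 9. Shares of all genes called in these fits are not set beside the counts. The counts alone therefore do not show whether members lost calls more than other genes did. The median below 0 was present in each batch: TRI-611 minus DMSO within batches 1, 2 and 3 gave -0.12, -0.09 and -0.10 in NCI-H2228, -0.09, -0.08 and -0.08 in SNU2535, and -0.11, -0.0024 and -0.10 in NCI-H3122.

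**Figure D2:**
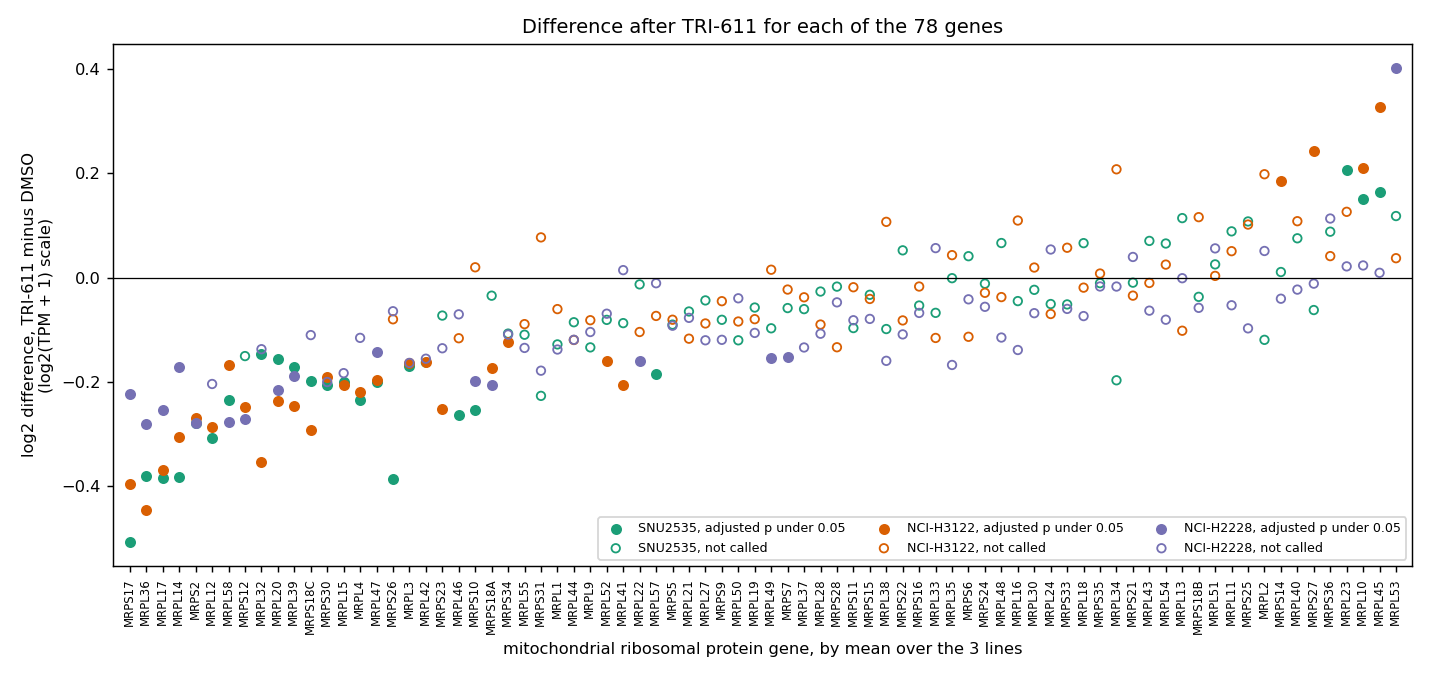
Difference between TRI-611 and DMSO on the log2(TPM + 1) scale (y axis) for each of the 78 genes (x axis, ordered by the mean of the 3 lines), coloured by line; filled points passed the test. Filled points gather at the left below 0, where MRPS17, MRPL36, MRPL17, MRPL14 and MRPS2 are filled in all 3 lines, and few are filled at the right.

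In all 3 lines, 9 of the 78 genes (11.5%) were called lower: MRPS17, MRPL36, MRPL17, MRPL14, MRPS2, MRPL58, MRPL20, MRPL39 and MRPL47. Among the 13186 genes tested in all 3 lines, 4.74% were called lower in each. No member was called higher in all 3, against 2.56% of all genes. A further 10 members were called lower in 2 lines and 11 in 1 line, and none was called in opposite directions. A difference below 0 in all 3 lines was seen for 44 members (56.4%), against 24.8% of all genes. The count of 9 was 8 with the replicate block, which kept 6 of them and lost MRPL47, MRPL58 and MRPS17, and 3 without a filter or with quantile normalization (MRPL17, MRPL20 and MRPS2). Plain empirical Bayes left 2, MRPL17 and MRPS2, and leaving out TRI-611 replicate 1 of NCI-H2228 left 4 genes in all, with 5 without DMSO replicate 1 or 2 of that line.

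MRPL17, a large subunit protein with a bacterial counterpart near the exit tunnel, fell in each line. The gene lies at chr11:6680782-6683401 on the minus strand (GRCh38, GENCODE annotation). It had 88.3, 93.6 and 88.6 TPM in the TRI-611 libraries, against 112, 119 and 123 TPM in the DMSO libraries of SNU2535. NCI-H3122 gave 93.4, 95.4 and 94.8 TPM in the TRI-611 libraries, against 122, 121 and 125 TPM in the DMSO libraries, and NCI-H2228 103, 100 and 101 TPM in the TRI-611 libraries, against 125, 119 and 118 TPM in the DMSO libraries. Its DMSO level was nearly the same in the 3 lines, and no TRI-611 library reached the lowest DMSO library of its line. The log2 differences were -0.38 ± 0.04, -0.37 ± 0.03 and -0.25 ± 0.04 (SE; adjusted p = 0.000559, 0.000138 and 0.00384), and the call held in every alternative and every fit that left out 1 library.

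MRPL36 (chr5:1798386-1801366, minus strand), one of the smallest proteins of the large subunit, had 88.4, 85.8 and 85.9 TPM in the TRI-611 libraries, against 112, 111 and 117 TPM in the DMSO libraries of SNU2535. In NCI-H3122, the line where it is highest, it had 125, 119.7 and 119 TPM in the TRI-611 libraries, against 177, 153 and 167 TPM in the DMSO libraries. NCI-H2228, where it is lowest, gave 58.8, 66.3 and 62.1 TPM in the TRI-611 libraries, against 71.7, 80.8 and 75.6 TPM in the DMSO libraries. The groups did not overlap in any line. Differences were -0.38 ± 0.04, -0.44 ± 0.05 and -0.28 ± 0.06 (SE; adjusted p = 0.000184, 0.000646 and 0.0193), and the call in NCI-H2228 was lost in 3 of the 6 fits without 1 library.

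MRPS17 (chr7:55951819-55956501, plus strand), a small subunit protein with a bacterial counterpart, showed the largest fall of any member in SNU2535, where it had 15.5, 13.6 and 13.6 TPM in the TRI-611 libraries, against 20.6, 19.4 and 21.9 TPM in the DMSO libraries. It had 22.3, 24.2 and 22.8 TPM in the TRI-611 libraries, against 32.7, 30.5 and 29.0 TPM in the DMSO libraries of NCI-H3122. The smallest gap was in NCI-H2228, with 28.6, 28.9 and 27.9 TPM in the TRI-611 libraries, against 36.3, 31.7 and 32.4 TPM in the DMSO libraries. TRI-611 libraries lay below DMSO libraries throughout, with differences of -0.51 ± 0.07, -0.40 ± 0.06 and -0.22 ± 0.06 (SE; adjusted p = 0.00144, 0.00156 and 0.0451). The NCI-H2228 call was lost without any 1 of its libraries and with the replicate block (adjusted p = 0.0579; 0.0211 to 0.12 over all alternatives). Of its 2159 exonic bases, 583 are shared with genes on the same strand, NIPSNAP2 among them, so reads there may be divided.

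MRPL14 (chr6:44113454-44127457, minus strand), which lies at the face where the subunits meet, was among the most abundant members. It had 297, 269 and 262 TPM in the TRI-611 libraries, against 339, 402 and 343 TPM in the DMSO libraries of SNU2535. NCI-H3122 had 197, 186 and 188 TPM in the TRI-611 libraries, against 239, 230.0 and 238 TPM in the DMSO libraries, and NCI-H2228 356, 380.3 and 349.8 TPM in the TRI-611 libraries, against 408, 409 and 406 TPM in the DMSO libraries. DMSO replicate 2 of SNU2535 stood above the other DMSO libraries of that line, and the groups were apart in each line. Differences were -0.38 ± 0.08, -0.31 ± 0.04 and -0.17 ± 0.04 (SE; adjusted p = 0.00899, 0.00052 and 0.0218). The NCI-H2228 call was lost in 4 of 6 fits without 1 library, without a filter, with quantile normalization, without mitochondrially encoded genes, with plain empirical Bayes and in the fit of all 18 libraries, with an adjusted p from 0.0080 to 0.105 over all alternatives.

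MRPS2 (chr9:135499984-135504673, plus strand), a small subunit protein with a bacterial counterpart, fell by nearly the same amount in each line. Its values were 92.0, 88.5 and 92.2 TPM in the TRI-611 libraries, against 110.3, 113 and 108 TPM in the DMSO libraries of SNU2535. They were 91.5, 88.6 and 94.2 TPM in the TRI-611 libraries, against 109.5, 109 and 113 TPM in the DMSO libraries of NCI-H3122 and 90.4, 82.0 and 85.6 TPM in the TRI-611 libraries, against 109, 103 and 102 TPM in the DMSO libraries of NCI-H2228. The groups did not overlap in any line, and the differences were -0.28 ± 0.03, -0.27 ± 0.04 and -0.28 ± 0.05 (SE; adjusted p = 0.000838, 0.00129 and 0.00821). This call, too, held in every alternative and without any 1 library. MRPL58, which can release peptides from stalled ribosomes, had differences of -0.23, -0.17 and -0.28. The large subunit protein MRPL20 had -0.16, -0.24 and -0.22. MRPL39 had -0.17, -0.25 and -0.19, and MRPL47 -0.20, -0.20 and -0.14. These calls were less stable than those of MRPL17 and MRPS2. In the 6 fits without 1 library of each line, MRPL58 lost its call in 5 in NCI-H3122 and MRPL20 in 1 in SNU2535 and 2 in NCI-H2228. MRPL39 lost it in 4 in SNU2535 and 2 in NCI-H2228, and MRPL47 in 4 in SNU2535 and 6 in NCI-H2228.

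**Figure D3:**
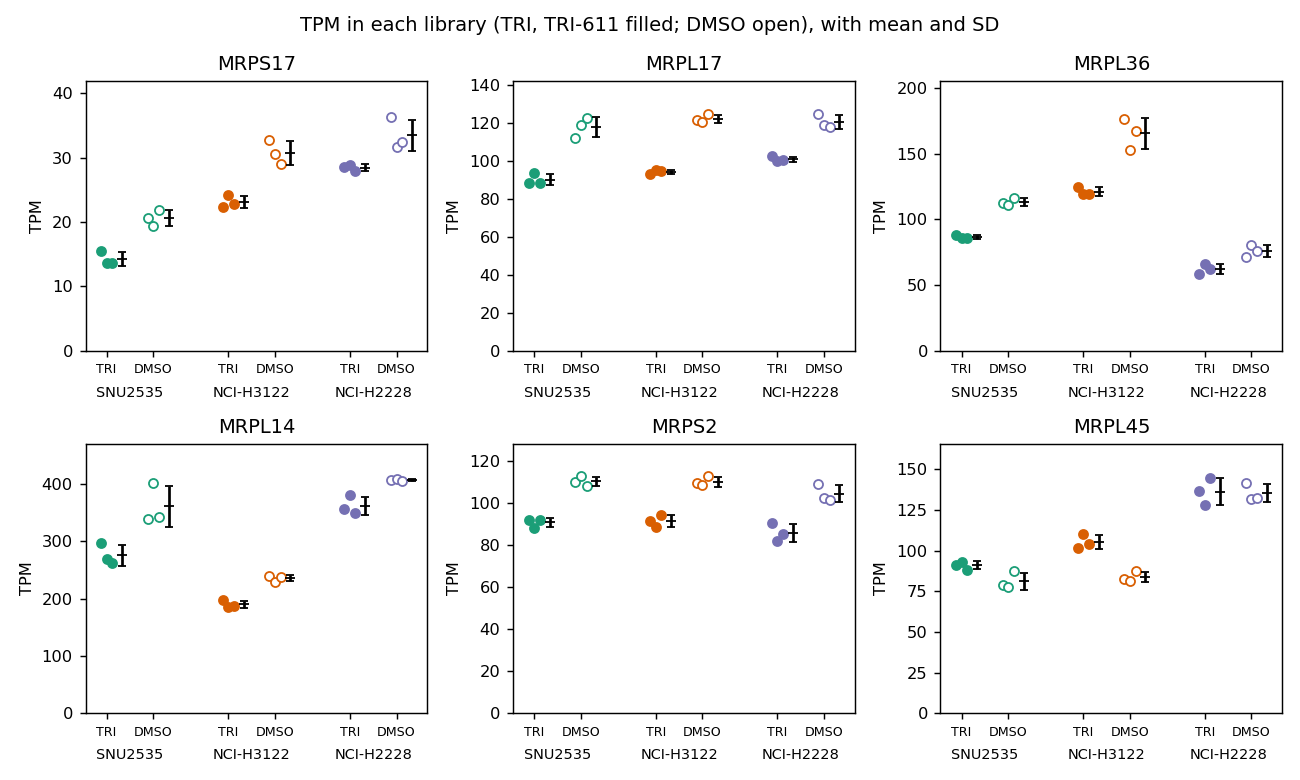
TPM (y axis) of 5 genes called lower in all 3 lines and of MRPL45 in every library, with TRI-611 (filled) left of DMSO (open) within each line, and the mean and SD of 3 libraries in black. For MRPS17, MRPL17, MRPL36, MRPL14 and MRPS2 every filled point is below the open points of its line, while for MRPL45 the filled points are above the open ones in SNU2535 and NCI-H3122 and overlap them in NCI-H2228.

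Promoter windows of 300 bases, from 250 before to 50 after the annotated start, were given by RefSeq (GRCh38.p14) for 69 of the 78 genes; those without an entry were MRPL2, MRPL10, MRPL13, MRPL15, MRPL21, MRPL23, MRPL35, MRPS28 and MRPS36. They were searched on both strands for motifs of factors known from nuclear genes of mitochondria: GCGC, 2 bases of any kind and GCGC for NRF1, CCGGAAG for the ETS family to which GABPA belongs, AAGATGGCG for YY1, CACGTG for E-box factors such as MYC, and GGGGCGGGG for the SP and KLF family. A gene counted if any of its windows held the letters. The ETS letters were in 30 members (43.5%), against 16.5% of 15843 protein-coding genes with a window, and the YY1 letters in 13 (18.8%), against 3.21%. NRF1 letters were in 10 members (14.5%) against 13.9%, the E-box in 9 (13.0%) against 10.9%, and the SP and KLF letters in 18 (26.1%) against 26.2%. Over all 35116 windows, several of which can belong to 1 gene, the ETS letters were in 10.3% and the YY1 letters in 1.75%.

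The windows of 4 genes called lower in all 3 lines are printed to show where these letters lie, and capitals mark NRF1, ETS, YY1 and E-box matches. MRPL17 (chr11:6683291-6683590, minus strand) holds 1 NRF1 match. MRPL36 (chr5:1799788-1800087, minus strand) holds an NRF1 match, an E-box and, on the reverse strand, the YY1 letters. MRPL20 (chr1:1407244-1407543, minus strand) and MRPL58 (chr17:75012420-75012719, plus strand) each hold the ETS letters at 2 places.
MRPL17: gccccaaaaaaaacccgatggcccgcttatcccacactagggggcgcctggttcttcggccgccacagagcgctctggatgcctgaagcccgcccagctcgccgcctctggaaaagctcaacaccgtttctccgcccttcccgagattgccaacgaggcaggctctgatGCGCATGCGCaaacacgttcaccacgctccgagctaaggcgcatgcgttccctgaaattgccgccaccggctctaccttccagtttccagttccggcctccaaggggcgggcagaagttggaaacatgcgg
MRPL36: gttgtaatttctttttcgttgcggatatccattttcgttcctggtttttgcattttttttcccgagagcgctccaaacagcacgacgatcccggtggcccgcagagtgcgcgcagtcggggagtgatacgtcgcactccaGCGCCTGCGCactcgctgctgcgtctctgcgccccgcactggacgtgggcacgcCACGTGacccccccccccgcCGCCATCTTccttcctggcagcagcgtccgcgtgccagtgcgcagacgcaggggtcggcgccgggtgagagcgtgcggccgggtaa
MRPL20: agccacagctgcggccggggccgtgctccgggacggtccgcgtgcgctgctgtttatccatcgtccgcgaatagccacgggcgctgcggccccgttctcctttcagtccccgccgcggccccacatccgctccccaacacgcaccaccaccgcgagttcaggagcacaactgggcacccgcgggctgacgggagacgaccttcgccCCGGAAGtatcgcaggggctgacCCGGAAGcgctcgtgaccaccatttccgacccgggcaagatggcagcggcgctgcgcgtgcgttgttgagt
MRPL58: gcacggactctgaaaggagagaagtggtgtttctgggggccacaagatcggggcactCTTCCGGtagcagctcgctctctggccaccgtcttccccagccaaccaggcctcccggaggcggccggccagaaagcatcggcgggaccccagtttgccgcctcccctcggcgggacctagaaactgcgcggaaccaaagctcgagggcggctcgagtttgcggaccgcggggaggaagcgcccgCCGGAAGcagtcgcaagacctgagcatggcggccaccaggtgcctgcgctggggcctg

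Median differences after TRI-611 were set side by side for members with and without each motif. With the ETS letters, the median differences were -0.05, -0.06 and -0.11 in SNU2535, NCI-H3122 and NCI-H2228, against -0.10, -0.08 and -0.11 without them. With the NRF1 letters they were -0.14, -0.03 and -0.07, against -0.07, -0.08 and -0.11 without them. With the E-box they were -0.10, -0.10 and -0.15, against -0.08, -0.08 and -0.11 without it. With the YY1 letters they were -0.12, -0.12 and -0.16, against -0.07, -0.07 and -0.11 without them. With the SP and KLF letters they were -0.06, -0.03 and -0.10, against -0.10, -0.08 and -0.11 without them. Each of these gaps was under 0.1 on the log2 scale. Most of the medians are themselves about that size, so a gap under 0.1 need not be small beside them. A match is only a description of these letters, matches of different motifs may overlap, and the difference between such groups was not tested.

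Of the members, 29 have a protein-coding gene that starts within 1 kb on the opposite strand. The pairs named next were chosen after their values were seen. MRPL36 starts 34 bases from NDUFS6, a subunit of respiratory complex I, whose log2 differences were 0.0015, -0.0071 and -0.01 in SNU2535, NCI-H3122 and NCI-H2228 while MRPL36 had -0.38, -0.44 and -0.28. The 34 bases are counted from the outer end of the gene in GENCODE, at 1801366. The window printed above for MRPL36, chr5:1799788-1800087, follows another annotated start inside the gene. That window therefore does not hold the stretch beside NDUFS6. MRPL47 starts 36 bases from NDUFB5, another complex I subunit, which had 0.07, 0.08 and 0.0012 beside -0.20, -0.20 and -0.14 for MRPL47. MRPL32 starts 23 bases from the proteasome gene PSMA2, which had 0.05, 0.0041 and -0.06, against -0.15, -0.35 and -0.14 for MRPL32. Among members called lower whose neighbour was tested, that neighbour was called lower for 1 of 7 in SNU2535 (TMEM63B beside MRPL14), 0 of 7 in NCI-H3122 and 0 of 6 in NCI-H2228, and called higher for none of them. Of all genes, 18.1%, 13.4% and 6.4% were called lower in these lines, so with so few pairs these counts do not show a departure from that share.

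Some large falls were called in fewer lines. MRPS26, a small subunit protein without a bacterial counterpart, had 60.5, 58.0 and 59.1 TPM in the TRI-611 libraries, against 77.2, 72.4 and 83.9 TPM in the DMSO libraries of SNU2535, groups well apart (-0.39 ± 0.06, SE; adjusted p = 0.0016). It was not called in NCI-H3122 (-0.08) or NCI-H2228 (-0.06), where its libraries overlapped. MRPL12, the stalk protein that recruits translation factors and that also binds the mitochondrial RNA polymerase, had differences of -0.31 in SNU2535 and -0.29 in NCI-H3122 (adjusted p = 0.031 and 0.0188) and missed the threshold at -0.20 in NCI-H2228 (adjusted p = 0.0575). Its call was lost in 3 of 6 fits without 1 library in SNU2535 and 4 of 6 in NCI-H3122, in both without a filter, and in SNU2535 also with median-ratio scaling, quantile normalization and plain empirical Bayes. Of the 1028 exonic bases of MRPL12, 701 are shared with another gene on the same strand, so reads there may be divided. MRPS12, a protein of the decoding centre, was called in NCI-H3122 (-0.25) and NCI-H2228 (-0.27) and had -0.15 in SNU2535. MRPL46 in SNU2535 (-0.26, adjusted p = 0.0379) lost its call in 5 of the 6 fits without 1 library. The call was also lost with the replicate block (adjusted p = 0.0593, and 0.0176 to 0.109 over all alternatives). Of the 6432 exonic bases of MRPL46, 724 are shared with another gene on the same strand.

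The paralogous trio MRPS18A, MRPS18B and MRPS18C, which descend from 1 bacterial protein and occupy different sites, were called in different lines. No difference in response between lines was called for any of them, and differences between the 3 genes were not tested. MRPS18C had differences of -0.20, -0.29 and -0.11, called in SNU2535 and NCI-H3122, each call lost in 3 of the 6 fits without 1 library and without a filter. MRPS18A had -0.03, -0.17 and -0.21, called in NCI-H3122 and NCI-H2228. Its NCI-H3122 call was lost in 1 of the 6 fits without 1 library. Its NCI-H2228 call was lost in 4 of 6, without a filter and with plain empirical Bayes. MRPS18B had -0.04, 0.12 and -0.06 and was called in none. In NCI-H3122, MRPS18B had 116, 126 and 123 TPM with TRI-611 and 116, 107 and 113 TPM with DMSO, overlapping groups. MRPS36, the member outside the ribosome, was slightly above 0 in each line (0.09, 0.04 and 0.11) and was not called.

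Of the 78 genes, 6 were called higher, 2 of them, MRPL45 and MRPL10, in both SNU2535 and NCI-H3122 and the others in 1 line. MRPL45, which ties the ribosome to the inner membrane, had 102, 110.2 and 104 TPM in the TRI-611 libraries, against 82.4, 81.4 and 87.3 TPM in the DMSO libraries of NCI-H3122, a gap of 0.33 ± 0.05 with no overlap (SE; adjusted p = 0.00121). In SNU2535 it had 91.5, 93.3 and 88.3 TPM in the TRI-611 libraries, against 78.9, 77.5 and 87.3 TPM in the DMSO libraries, apart by a narrow margin (0.16 ± 0.05, SE; adjusted p = 0.0476). That call was lost with the replicate block (adjusted p = 0.0918; 0.0129 to 0.132 over all alternatives) and in 5 of the 6 fits without 1 library. In NCI-H2228 the groups overlapped (0.01). Its pseudogene MRPL45P2 was listed at a mean of 6.16 TPM, against 105 TPM for MRPL45, so the counting may have divided some reads between them.

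MRPL10, the base of the stalk that holds MRPL12, had differences of 0.15 ± 0.04 in SNU2535 and 0.21 ± 0.07 in NCI-H3122 (SE; adjusted p = 0.0307 and 0.0439), each lost in 5 of the 6 fits without 1 library, and the NCI-H3122 call also with the replicate block (adjusted p = 0.0706; 0.00467 to 0.124 over all alternatives). The calls of MRPL12 and MRPL10, of opposite sign in both lines, thus each rest on few libraries, and the difference between the genes was not tested. MRPS27, a small subunit protein of the pentatricopeptide repeat family, had 44.9, 49.6 and 48.7 TPM in the TRI-611 libraries, against 39.9, 41.1 and 39.4 TPM in the DMSO libraries of NCI-H3122 (0.24 ± 0.05, SE; adjusted p = 0.00678), with no overlap. MRPS14 in NCI-H3122 (0.18, adjusted p = 0.0411) and MRPL23 in SNU2535 (0.21, adjusted p = 0.0322) were called but lost the call with the replicate block (adjusted p = 0.0826 and 0.0744, over all alternatives 0.00996 to 0.119 and 0.0157 to 0.0993). Both calls were also lost without a filter, and in 5 and 4 of the 6 fits without 1 library. MRPS14 lost its call with median-ratio scaling, quantile normalization and plain empirical Bayes as well. MRPL53 in NCI-H2228 had 10.0, 11.1 and 11.6 TPM in the TRI-611 libraries, against 7.32, 8.02 and 8.67 TPM in the DMSO libraries (0.40 ± 0.09, SE; adjusted p = 0.0202); the call was lost in 4 of the 6 fits without 1 library, and 608 of its 1344 exonic bases are shared with CCDC142 on the same strand.

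By subunit, 15 of 51 large subunit genes were called lower in SNU2535 and 5 of 26 small subunit genes. NCI-H3122 had 17 large and 6 small subunit genes called lower, and NCI-H2228 had 10 large and 5 small. Beside the 18.1%, 13.4% and 6.4% of all genes called lower in these lines, the small subunit share was near that of all genes in SNU2535. Whether the subunits differ was not tested. Large subunit medians were -0.09, -0.09 and -0.11 and small subunit medians -0.06, -0.04 and -0.09 in SNU2535, NCI-H3122 and NCI-H2228. Among proteins with a bacterial counterpart, 14, 15 and 12 of 48 were called lower in the 3 lines, and among those without one, 6, 8 and 3 of 29. No member of the small group of mitochondrion-specific small subunit proteins was called in NCI-H2228, where all 9 were below 0. The remaining proteins of the ribosome that carry other names, 5 in all, had no call in SNU2535 or NCI-H3122, and in NCI-H2228 GADD45GIP1 (-0.18) and DAP3 (-0.13) fell. For 37 members whose exons overlap no other annotated gene, 11, 12 and 7 were called lower and 2, 2 and 0 higher in SNU2535, NCI-H3122 and NCI-H2228.

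Genes that serve the mitochondrial ribosome gave a mixed picture. Their counts are to be read beside the shares of all genes, given above: called lower were 18.1%, 13.4% and 6.4%, and called higher 10.7%, 20.6% and 4.8%, in the order SNU2535, NCI-H3122, NCI-H2228. Of 26 assembly factors, 11 fell and 0 rose in SNU2535, 6 fell and 6 rose in NCI-H3122, and 2 fell and 0 rose in NCI-H2228. The lower calls were thus 42.3%, 23.1% and 7.69% of the list, the last close to the share of all genes, and the higher calls in NCI-H3122 were 23.1%, close to the 20.6% of all genes. The largest falls in SNU2535 were of MRM2 (-0.54), a methyltransferase of the large ribosomal RNA, DDX28 (-0.49), a helicase, and PTCD1 (-0.49). C1QBP and DHX30 were called lower in all 3 lines, in NCI-H2228 at -0.25 and -0.19. MTERF4 (0.46) and MRM1 (0.38) rose in NCI-H3122, where MTERF3 (-0.45) fell. Of 13 translation factors, 3 fell and 1 rose in SNU2535, 1 fell and 2 rose in NCI-H3122, and 1 fell in NCI-H2228. TACO1, the translational activator of a cytochrome oxidase subunit, fell in SNU2535 (-0.38) and NCI-H2228 (-0.30).

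Among 20 mitochondrial aminoacyl-tRNA synthetases and related enzymes, MARS2, which charges the methionine tRNA, was called lower in each line. It averaged 7.74 ± 1.22 TPM with TRI-611 in SNU2535, against 22.6 ± 1.24 TPM with DMSO (SD, n = 3 each), and its log2 differences were -1.44, -0.70 and -0.90 (adjusted p = 5.83e-05, 3.38e-05 and 0.000585). Of the list, 4 fell and 1 rose in SNU2535, 1 fell and 5 rose in NCI-H3122, among them TARS2 (0.33) and AARS2 (0.31), and 2 fell and 1 rose in NCI-H2228, so that 20.0%, 5.00% and 10.0% of the list were lower. Of the regulators of mitochondrial transcription and biogenesis, 7 of 11 fell in SNU2535, 6 of 12 in NCI-H3122 and 4 of 12 in NCI-H2228, and 1 rose in each, GABPA in the first 2 lines and YY1 in NCI-H2228. MYC, a transcription factor that acts on many growth genes, averaged 67.6 ± 2.08, 271 ± 5.67 and 57.5 ± 1.13 TPM with TRI-611 in SNU2535, NCI-H3122 and NCI-H2228, against 203 ± 13.4, 421 ± 5.40 and 119.6 ± 5.78 TPM with DMSO (SD, n = 3 each). Its differences of -1.57, -0.64 and -1.04 and those of the PGC-1 related coactivator PPRC1, -1.61, -0.34 and -0.57, were called in each line. ESRRA, a nuclear receptor that acts on respiratory genes, had -0.50, -0.26 and -0.21, also called in each. Of the cytosolic ribosomal proteins, 37 of 82 rose and 1 fell in SNU2535, 6 rose and 2 fell in NCI-H3122, and 1 rose and 0 fell in NCI-H2228; the same rule gave the counts of the mitochondrial ones above. Whether any of these moves is linked to the mitochondrial ribosomal proteins was not tested.

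In DMSO, the mean level of a member over the 9 libraries ran from 9.64 to 440.5 TPM with a median of 58.5, a 45.7-fold range among proteins that the ribosome holds in nearly equal number. MRPL9 leads by this pooled mean through NCI-H3122 alone: 9 members were above it in SNU2535 and 7 in NCI-H2228. Within a line the range was 69.5-fold in SNU2535 (MRPS34 to MRPL53), 118-fold in NCI-H3122 (MRPL9 to MRPL46) and 50.9-fold in NCI-H2228 (MRPL14 to MRPL53). The 5 highest by the pooled mean were MRPL9, MRPS34, MRPL14, MRPL51 and MRPL3, and the 5 lowest, from the bottom, MRPL46, MRPL53, MRPS25, MRPL48 and MRPL42. MRPL51 averaged 265 ± 7.85 TPM in SNU2535, 309 ± 4.58 TPM in NCI-H3122 and 290.3 ± 1.48 TPM in NCI-H2228 (SD, n = 3 each). MRPL46, the lowest, averaged 8.96 ± 0.32, 8.38 ± 0.63 and 11.6 ± 1.05 TPM in the same order, so SNU2535 and NCI-H3122 did not differ beyond their spread. The lines also differed in the same gene: 43 members differed at least 1.5-fold between the highest and the lowest line mean and 19 at least 2-fold. MRPL17 and MRPS2 differed least, at 1.04-fold and 1.06-fold. SNU2535 was the lowest line for 44 members, NCI-H3122 for 18 and NCI-H2228 for 16.

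**Figure D4:**
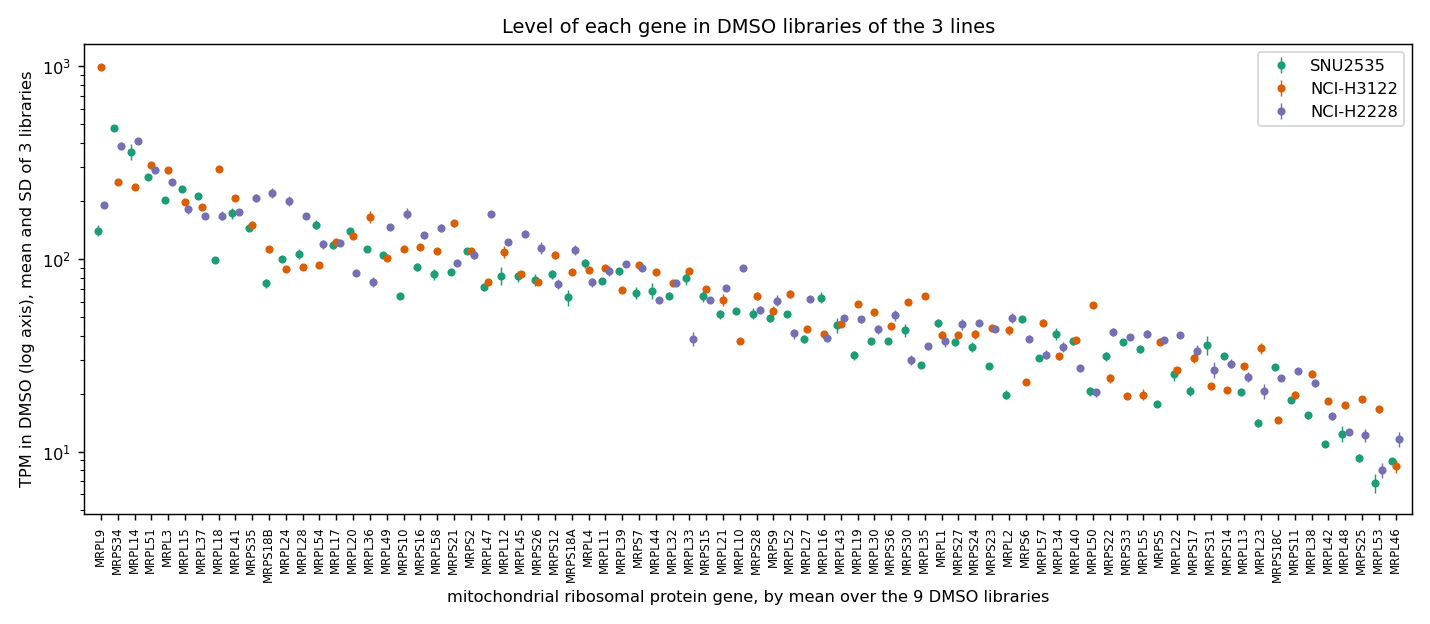
TPM with DMSO (y axis, log scale) of each of the 78 genes (x axis, ordered by the mean over the 9 DMSO libraries) in the 3 lines, as mean and SD of 3 libraries. The levels fall from 440.5 TPM for MRPL9 to 9.64 TPM for MRPL46, and MRPL9 in NCI-H3122 stands far above the other lines.

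The 3 comparisons of DMSO libraries share libraries pair by pair and are given side by side. SNU2535 was lower than NCI-H3122 for 43 members and higher for 20, where 30.7% of the 18233 genes tested were lower and 45.4% higher, with medians of -0.21 for members and 0.16 for all genes. SNU2535 was lower than NCI-H2228 for 47 members and higher for 20, where 42.6% of all genes were lower and 32.4% higher, with medians of -0.25 and -0.11. NCI-H3122 was lower than NCI-H2228 for 35 members and higher for 31, where 49.3% of all genes were lower and 30.0% higher, with medians of -0.01 and -0.25. Scaling matters here: median-ratio scaling moved the median of all genes to 0.01, -0.03 and -0.01, gave 57 lower and 14 higher for SNU2535 against NCI-H3122, and turned the third comparison to 21 lower and 44 higher, as quantile normalization did with 22 lower and 43 higher. Shares of all genes called under these scalings are not set beside these counts of members. With TPM and with both scalings, the members' median lay below that of all genes in both comparisons of SNU2535 and above it in the comparison of NCI-H3122 with NCI-H2228.

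MRPL9, a large subunit protein with a bacterial counterpart, had 136, 134 and 151 TPM in SNU2535, against 1004, 968 and 1002 TPM in NCI-H3122 and 189, 186 and 194 TPM in NCI-H2228. NCI-H3122 was thus far above both other lines, by the largest gap of any member, with SNU2535 minus NCI-H3122 at -2.81 ± 0.04 and NCI-H3122 minus NCI-H2228 at 2.38 ± 0.04 (SE; adjusted p = 1.96e-11 and 4.09e-11). The gene lies at chr1:151759643-151763564 (GRCh38, minus strand). The 49 tested genes that start within 1 Mb of it had median differences of -2.14 and 1.62 in the same comparisons, of the same sign as MRPL9.

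The 6 members on chromosome 6 were lower together in SNU2535 than in NCI-H2228. MRPS18B had 70.8, 78.8 and 74.2 TPM in SNU2535 against 231, 224 and 207 TPM in NCI-H2228 (-1.55 ± 0.05, SE; adjusted p = 4.8e-09). MRPS10 had 64.3, 62.7 and 66.8 TPM in SNU2535 against 184, 172 and 161 TPM in NCI-H2228 (-1.40 ± 0.05), and MRPL2 had 18.5, 20.5 and 20.2 against 47.5, 53.0 and 48.3 TPM (-1.29 ± 0.06). Neither pair of groups overlapped, and all 6, with MRPS18A, MRPL14 and MRPL18, were called lower in SNU2535, with a median of -1.05. The other 934 tested genes of chromosome 6 had a median of -0.70 in that comparison. On chromosome 17 all 8 members were called lower in SNU2535 than in NCI-H2228, with a median of -0.66 against -0.23 for the other genes there. Of all genes tested, 42.6% were called lower in this comparison.

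Across members, the difference between lines ran with that of the genes around them. For the 75 members with at least 5 tested neighbours within 1 Mb, Pearson's r between the member's difference and the median of its neighbours was 0.61 for SNU2535 against NCI-H3122, 0.69 for SNU2535 against NCI-H2228 and 0.69 for NCI-H3122 against NCI-H2228. Spearman's rho was 0.53, 0.66 and 0.63. The member and the median of its neighbours had the same sign for 42, 57 and 49 of the 75. These are descriptions across genes that share libraries and, for close members, neighbours, and they were computed after the levels had been seen. The differences after TRI-611 did not show this correlation: r was 0.10 in SNU2535 (73 members), 0.12 in NCI-H3122 (74) and 0.08 in NCI-H2228 (75). Their sign was that of the neighbours for 48, 31 and 38 of these members.

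**Figure D5:**
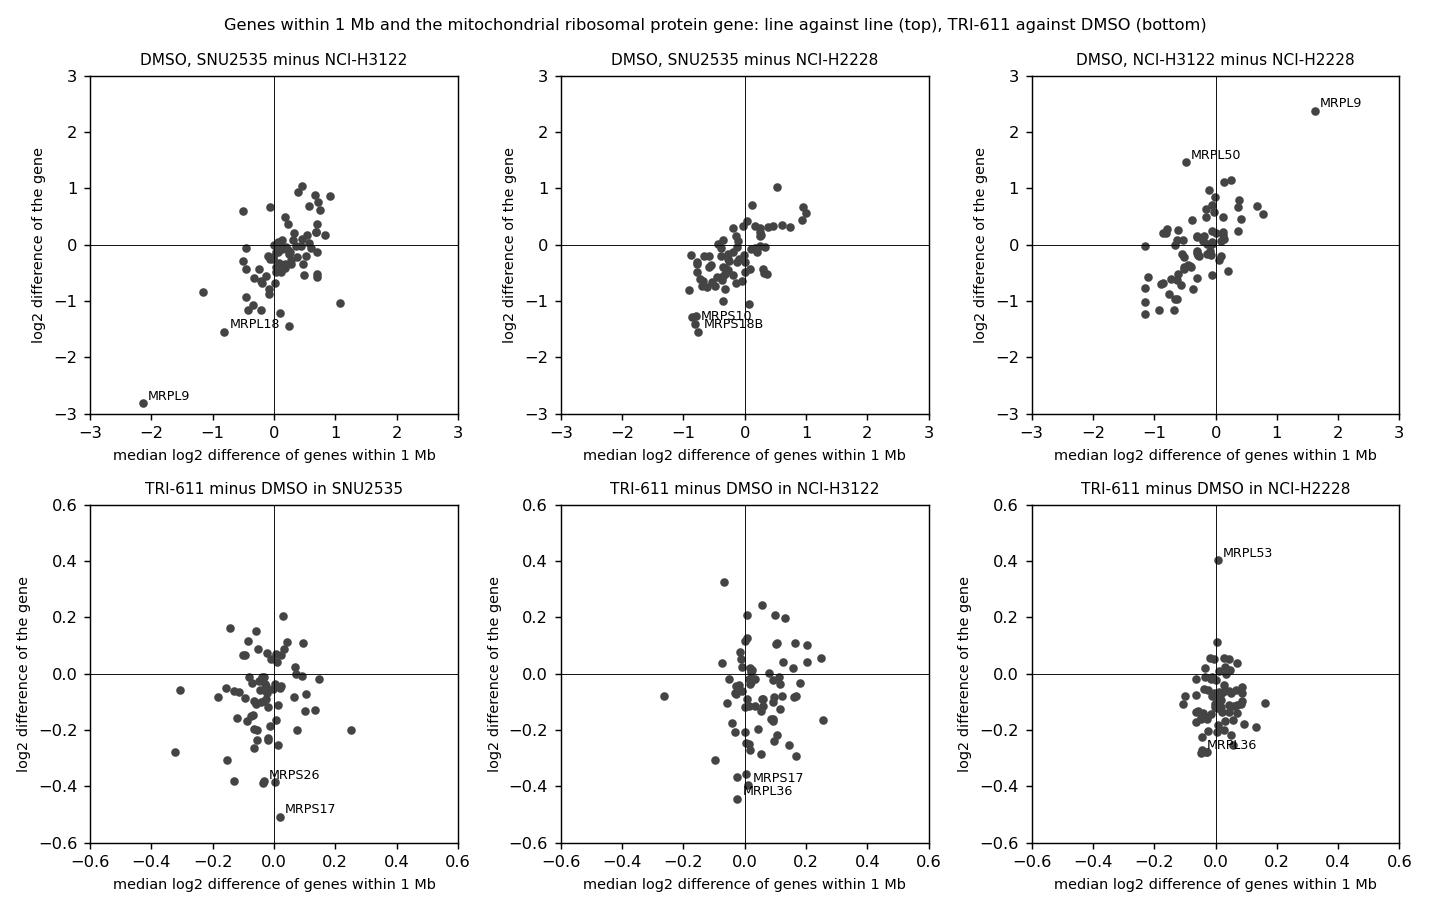
Log2 difference of each mitochondrial ribosomal protein gene (y axis) against the median log2 difference of tested genes that start within 1 Mb (x axis), between DMSO libraries of 2 lines (top) and between TRI-611 and DMSO within a line (bottom, narrower axes). The top panels slope upward with r of 0.61, 0.69 and 0.69 and MRPL9 at the end in 2 of them, while the bottom panels show no slope.

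Not every line difference followed its neighbours. MRPL50, a mitochondrion-specific large subunit protein, had 19.6, 20.1 and 21.9 TPM in SNU2535 and 59.1, 55.9 and 58.0 TPM in NCI-H3122, against 19.7, 19.8 and 21.4 TPM in NCI-H2228. It was higher in NCI-H3122 than in either other line (-1.45 ± 0.05 for SNU2535 minus NCI-H3122 and 1.46 ± 0.05 for NCI-H3122 minus NCI-H2228, SE), while its 5 neighbours had medians of 0.24 and -0.49, of opposite sign. MRPL36 was highest in NCI-H3122, above NCI-H2228 by 1.11 ± 0.06, where its 19 neighbours had 0.14. In the other direction MRPL10, at 37.4, 36.8 and 38.9 TPM in NCI-H3122 against 91.4, 89.4 and 87.0 TPM in NCI-H2228, had -1.22, close to the -1.15 of its 42 neighbours.

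The other largest differences were as follows. SNU2535 exceeded NCI-H3122 most for MRPS6 (1.05), MRPS34 (0.93), MRPS33 (0.89), MRPS18C (0.87) and MRPL55 (0.76), and lay furthest below it, after MRPL9, for MRPL18 (-1.54) and then, beside MRPL50 given above, for MRPL23 (-1.22) and MRPL53 (-1.16). Against NCI-H2228, SNU2535 was highest for MRPL33 (1.03), MRPL20 (0.71), MRPL16 (0.68), MRPL36 (0.57) and MRPS30 (0.50), and low for MRPL47 (-1.26) and MRPS5 (-1.06). NCI-H3122 exceeded NCI-H2228 also for MRPL33 (1.15) and MRPS30 (0.98), and was below it for MRPL47 (-1.16), MRPL24 (-1.16), MRPL55 (-1.02) and MRPS18B (-0.97). All of these kept their call under every alternative and without any 1 library. Exons of MRPS6, MRPL33, MRPL53, MRPS5 and MRPL20 overlap another gene on the same strand, as do those of MRPL9 and MRPL12.

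TPM was also summed by subunit. Large subunit genes summed to 4156 ± 70.8 TPM in SNU2535, against 5443 ± 91.9 TPM in NCI-H3122 and 4766 ± 44.4 TPM in NCI-H2228 (SD, n = 3 each). Small subunit genes summed to 1819 ± 25.2 TPM in SNU2535, against 1821 ± 43.8 TPM in NCI-H3122 and 2218 ± 49.1 TPM in NCI-H2228. NCI-H3122 thus had the highest large subunit sum and NCI-H2228 the highest small subunit sum. MRPL9 alone made up 991 TPM of the large subunit sum in NCI-H3122, against 190 in NCI-H2228 and 140 in SNU2535. Its gap between NCI-H3122 and NCI-H2228 is larger than the gap between their large subunit sums. Without MRPL9, NCI-H3122 would therefore lie below NCI-H2228 for the large subunit as well. SNU2535 and NCI-H3122 did not differ in the small subunit sum beyond their spread (exact permutation p = 1 on 3 against 3, two-sided). Each other pair was apart with the smallest possible p of 0.1.

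With TPM as deposited, the response to TRI-611 differed between lines for few members. Between SNU2535 and NCI-H3122, 1 member was called with a higher and 5 with a lower response in SNU2535, where 3.71% of 13788 genes were higher and 16.4% lower. Between SNU2535 and NCI-H2228, 0 were higher and 1 lower, where 2.74% of 14640 genes were higher and 7.83% lower. Between NCI-H3122 and NCI-H2228, 4 were higher and 2 lower, where 8.99% of 13878 genes were higher and 5.34% lower. The comparisons share libraries. With TPM as deposited, the members' counts are in each case a smaller share of 78 than that of all genes. With the replicate block, the third comparison had 2 higher. Median-ratio scaling moved the all-gene median of the first comparison from -0.09 to 0.03 and gave 13 higher and 0 lower there, quantile normalization 4 higher and 3 lower. In the second, quantile normalization gave 1 higher and 1 lower, and in the third median-ratio scaling gave 2 higher and 5 lower. Shares of all genes called under these scalings are not set beside the counts. The counts alone therefore do not show whether members differed more or less than other genes there.

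MRPS27 was called only in NCI-H3122, with the values given above, while SNU2535 had 35.2, 35.8 and 34.7 TPM in the TRI-611 libraries, against 37.8, 35.0 and 37.8 TPM in the DMSO libraries, overlapping groups. SNU2535 minus NCI-H3122 was -0.31 ± 0.07 (SE; adjusted p = 0.006), a call lost with median-ratio scaling. MRPL32, whose maturation is tied to assembly of the large subunit, had 57.3, 60.6 and 56.6 TPM in the TRI-611 libraries, against 74.9, 74.0 and 75.1 TPM in the DMSO libraries of NCI-H3122, a larger fall than in the other lines. The response in SNU2535 minus that in NCI-H3122 was 0.21 ± 0.06 (SE; adjusted p = 0.0205), a call lost in 1 of the 12 fits without 1 library. For NCI-H3122 minus NCI-H2228 it was -0.22 (adjusted p = 0.0386 in the same interaction test), a call lost in 9 of the 12 such fits. MRPS10 had 53.6, 56.0 and 52.5 TPM in the TRI-611 libraries, against 64.3, 62.7 and 66.8 TPM in the DMSO libraries of SNU2535 and overlapping groups in NCI-H3122, a difference of -0.27 ± 0.06 (SE; adjusted p = 0.00464). That call of MRPS10 was lost with median-ratio scaling. The larger response of MRPL53 in NCI-H2228 was not called against that in NCI-H3122 (-0.37, adjusted p = 0.075) or SNU2535 (-0.28, adjusted p = 0.203).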

How the data were processed

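The authors deposited TPM values for 57500 genes in 18 libraries. Per the submitters' processing notes, the tools were STAR 2.5.2b, fastp 0.23.1, and featureCounts from Subread 1.5.2, with DESeq2 and the build GRCh38 also listed. How TPM was derived, which annotation and strand setting applied and how molecular identifiers were handled is not stated there, so reads of genes that overlap on opposite strands may be mixed. TPM holds no read totals, so depth is unknown and no counting interval is given.

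The deposited TPM values were used as log2(TPM + 1), a scale that understates changes of low genes. Genes with TPM of 1 or more in at least 3 libraries of a fit entered limma 3.58.1 under R 4.3.3 (trend, robust, two-sided, Benjamini-Hochberg over all genes tested, called under 0.05), tested on simulated data beforehand. Each line was fitted on its 6 libraries, DMSO levels on the 9 DMSO libraries, and differences in response as an interaction on 12 libraries over genes that passed in both lines. Gene positions came from GENCODE release 29 and promoter windows from RefSeq GRCh38.p14. Figures were drawn with matplotlib 3.10.9.

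The labels' batch equals the replicate number, so the numbers mark a shared batch and a fit with the replicate block was an alternative. Same-batch deviations of TRI-611 and DMSO libraries correlated weakly, with r from -0.0865 to 0.101.

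The genes, the gene lists and the groupings were chosen with earlier results of these data known. Genes named in each line were the 8 largest falls and rises among called members whose libraries do not overlap, with 5 each way between lines in DMSO, 4 each way for differences in response, the extremes of level, and up to 3 called genes of each other list. Alternatives were the pseudocount, the filter, the scaling, mitochondrially encoded genes left out, the replicate block, plain empirical Bayes, 1 library left out and a fit of all 18 libraries.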

Additional observations from a re-analysis of the deposited data

Results flagged for a closer look

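Each result here is a difference between lines in the response to TRI-611 that passed limma's interaction test; the causes were not tested. SNU2535 minus NCI-H3122 was -0.40 for MRPL34, -0.32 for MRPL2, -0.31 for MRPS26, -0.31 for MRPS27, -0.27 for MRPS10 and 0.21 for MRPL32. MRPL34 had 38.7, 33.1 and 35.1 TPM with TRI-611 and 41.8, 37.8 and 43.3 TPM with DMSO in SNU2535, and 40.9, 35.4 and 32.9 TPM with TRI-611 and 32.2, 29.8 and 31.9 TPM with DMSO in NCI-H3122, and was called in neither line alone. MRPL2 was likewise called in neither (-0.12 in SNU2535 and 0.20 in NCI-H3122), and its difference lost the call with the replicate block (adjusted p = 0.0577; 0.0146 to 0.162 over all alternatives). The difference of MRPL34 lost its call in 4 of the 12 fits without 1 library, without a filter, and with median-ratio scaling and quantile normalization. That of MRPS26 lost it in 3 of the 12 fits without 1 library, without a filter and with median-ratio scaling. Under median-ratio scaling none of the lower responses in SNU2535 minus NCI-H3122 kept its call, those of MRPS27 and MRPS10 included. SNU2535 minus NCI-H2228 was -0.32 for MRPS26, a call lost in 8 of the 12 fits without 1 library.

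NCI-H3122 minus NCI-H2228 was 0.32 for MRPL45, 0.25 for MRPS27, 0.25 for MRPL16, 0.22 for MRPS10, -0.22 for MRPL32 and -0.22 for MRPL41. Of these, MRPL45 and MRPL16 kept the call without any 1 library and under every alternative. With the replicate block the calls of MRPS27, MRPS10 and MRPL32 were lost (adjusted p = 0.0651, 0.0542 and 0.0534, within ranges of 0.0193 to 0.113, 0.0141 to 0.18 and 0.0085 to 0.0942 over all alternatives). Each of the 3 was also lost in 9 of the 12 fits without 1 library, without a filter and with plain empirical Bayes. The call of MRPL41 was lost in 4 of those 12 fits, without a filter and with plain empirical Bayes. MRPL16 had 42.5, 45.3 and 44.0 TPM with TRI-611 and 42.5, 40.4 and 39.0 TPM with DMSO in NCI-H3122, and 35.1, 35.8 and 34.9 TPM with TRI-611 and 37.8, 39.2 and 39.7 TPM with DMSO in NCI-H2228, so its groups were apart in NCI-H2228 and overlapped in NCI-H3122.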

How the results depend on the processing

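Of the 74 called differences of named genes, none was reversed under any alternative run. Apart from the differences in response, these were chosen for groups that do not overlap, so leaving out 1 library could not reverse their sign. The absence of reversals is therefore no measure of stability. Of the 74 calls, 21 were lost without a filter, 16 with plain empirical Bayes, 11 with median-ratio scaling, 10 with the replicate block, 8 with quantile normalization and 2 without mitochondrially encoded genes. Fits without 1 library kept 494 calls and lost 112. Counts of called members that moved by over 1.5 times are given here with the count as reported. The causes of these moves were not tested, and shares of all genes are not set beside the counts here. Without a filter, SNU2535 had 0 higher (3) and 12 lower (20), NCI-H3122 2 higher (4), NCI-H2228 0 higher (1) and 7 lower (15), and 3 genes (9) were lower in all lines. Plain empirical Bayes gave 1 higher in SNU2535, 2 higher in NCI-H3122, 3 lower in NCI-H2228 and 2 lower in all lines. The replicate block gave 1 higher in SNU2535 and 2 higher in NCI-H3122, and for the difference in response of NCI-H3122 minus NCI-H2228 2 higher (4); it changed no other count by over 1.5 times and no call of a named gene other than those given above.

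Median-ratio scaling gave 5 higher in SNU2535, 2 higher and 41 lower (23) in NCI-H3122, and 21 lower (35) in DMSO for NCI-H3122 minus NCI-H2228. Quantile normalization gave 7 higher and 11 lower in SNU2535, 9 lower in NCI-H2228, 3 lower in all lines and 22 lower in that DMSO comparison. Without mitochondrially encoded genes, NCI-H3122 had 9 higher. For the responses, SNU2535 minus NCI-H3122 (1 higher, 5 lower) had 2 lower without a filter, 13 higher and 0 lower with median-ratio scaling, 4 higher and 3 lower with quantile normalization and 2 higher in the fit of all 18 libraries. SNU2535 minus NCI-H2228 (0 higher, 1 lower) had 0 lower without a filter, with median-ratio scaling and with plain empirical Bayes, 2 lower with the filter at 5 TPM and without mitochondrially encoded genes, and 1 higher with quantile normalization. NCI-H3122 minus NCI-H2228 (4 higher, 2 lower) had 2 higher without a filter, with median-ratio scaling and with plain empirical Bayes, and 0, 5 and 0 lower.

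Leaving out 1 library gave 0 to 1 higher and 13 to 16 lower in SNU2535, 2 to 7 higher and 16 to 21 lower in NCI-H3122, 0 to 1 higher and 5 to 12 lower in NCI-H2228, and 4 to 9 lower in all lines. In DMSO it gave 19 to 20 higher and 41 to 44 lower, 18 to 20 and 45 to 48, and 30 to 32 and 33 to 36, in the order of the report. For the responses it gave 0 to 3 higher and 2 to 6 lower, 0 to 1 and 0 to 2, and 2 to 6 and 0 to 2. The groups then hold 2 and 3 libraries. Neighbour windows of 0.5 and 2 Mb, added after the data were seen, gave r of 0.57 and 0.63, 0.64 and 0.65, and 0.65 and 0.68. TPM carries no read totals, so genes of low TPM, such as MRPL46 and MRPL53, have an unknown counting error.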
